A study of Caenorhabditis elegans with 4 samples.

Results

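The CES-1 regions of chromosome II are the 452 binding regions that the authors' combined list places on this autosome, of 2713 regions in the whole list. They were chosen by chromosome alone, so neither their strength nor their support in single replicates entered the choice. They were set against the 1861 regions of the same list on chromosomes III, IV, V and X. The rest of the list was left out of the comparison. The data are chromatin immunoprecipitation followed by sequencing (ChIP-seq) from hermaphrodites of Caenorhabditis elegans harvested as L3 larvae, grown at 20 °C and crosslinked with 2% formaldehyde. All libraries came from strain OP174, with the genotype unc-119(ed3) and the transgene wgIs174, in which ces-1 carries TY1, EGFP and FLAG tags and unc-119 is supplied for rescue. The labels state that the transgene was introduced by bombardment and that the fusion is expressed where and when ces-1 is. The 2 ChIP replicates were collected with a goat antibody against GFP, and the 2 input replicates are DNA from the same kind of lysate before the antibody step. No library analysed here came from worms without the tag, so recovery by the antibody apart from CES-1 was not measured. The labels do not say whether replicates were separate cultures.

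CES-1 belongs to the Snail family of zinc-finger transcription factors, which bind E-box-like DNA and mostly act as repressors. In C. elegans it is known for its part in programmed cell death in the pharynx, where excess CES-1 activity represses the cell-death activator gene egl-1 and keeps the sister cells of the NSM neurons alive, and for a role in asymmetric cell division. C. elegans autosomes have a gene-rich centre between arms that hold more repeats and recombine more often. Positions below are WormBase WS220 coordinates, and no gene was assigned to them.

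Each region has a q-value from the authors' caller, and the score used here is −log10 of that q-value. The caller returned 90 regions on chromosome II for replicate 1 and 182 for replicate 2, from 873921 and 1320404 uniquely mapped reads genome-wide. Input replicates 1 and 2 held 1535649 and 907103 such reads. Uniquely mapped reads made up only 11.8% and 11.7% of all reads in ChIP replicates 1 and 2. In input replicates 1 and 2 they made up 66.8% and 73.1%. The reason for the low share in the ChIP libraries was not tested. Both replicate lists and the combined list were called against 1 merged input, and the combined list was made from the reads of both replicates together. A call in a replicate is therefore no independent evidence for a combined region.

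The strongest chromosome II region was II:5543310-5544292, 983 bp wide, in rank 10 of the whole list. It had a combined score of 31.5, with 11.8 in replicate 1 and 15.96 in replicate 2. The second, II:5844637-5845180, lay 301 kb to its right and scored 28.7 in the combined list, 9.10 in replicate 1 and 18.6 in replicate 2. The replicates thus order these 2 regions differently, the first being higher in replicate 1 and the second in replicate 2. The third, II:10758818-10759348, stood on the other side of the chromosome centre and scored 24.3, with 8.33 in replicate 1 and 14.8 in replicate 2.

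After these 3 the scores dropped. II:5661015-5662219 scored 18.97 in the combined list, 5.57 in replicate 1 and 11.2 in replicate 2. This is the region of chromosome II for which the deposited lists record a changed internal structure on transfer to WS220. The transfer shortened it by 1 bp, from 1206 to 1205 bp, and left its q-value as it was. II:3502671-3503034 had nearly the same combined score, 18.8, on a much narrower region of 364 bp. Its replicate scores were 5.92 and 11.9.

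The remaining members of the 10 highest-scoring were II:10563349-10563709 with a combined score of 17.2, II:6148314-6148913 with 13.96, II:11335789-11337010 with 12.97, II:4133317-4133739 with 11.6 and II:12944494-12945008 with 11.1. Of the 10, 9 were called in both replicates. The exception was II:11335789-11337010, in rank 72 of the whole list, which scored 8.50 in replicate 2 and was not called in replicate 1. It was also the second widest of the chromosome at 1222 bp, after II:11634923-11636231 with 1309 bp. Scores above 10 were reached by 16 of the 452 regions (3.54%, 95% Wilson interval 2.19 to 5.67), against 5.27% of the 2313 regions on II, III, IV, V and X together. On X 7.25% did so, and on III, IV and V between 4.61% and 5.39%. This difference in share was not tested, because the score only describes regions.

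**Figure D1:**
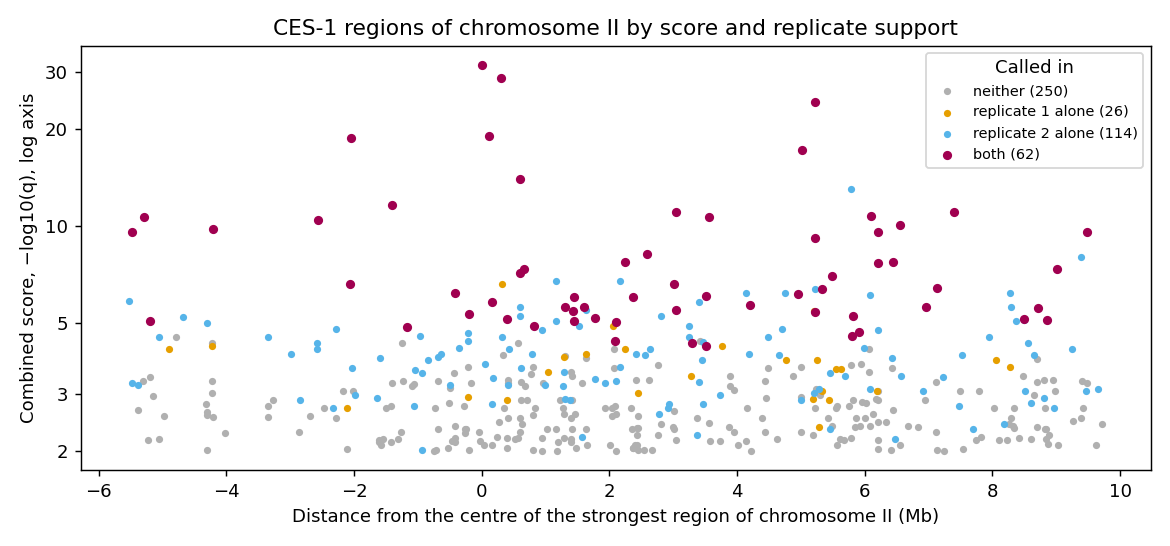
Combined score, −log10(q) on a log axis, of each of the 452 chromosome II regions against the distance of its centre from the centre of the strongest region. Colours give the replicate lists that hold the region: the 62 called in both replicates all score above 4.2, and the 250 called in neither lie between 2.00 and 4.51.

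The median width of the chromosome II regions was 205.5 bp (quartiles 127.75 and 299.5), and together they covered 104397 bp, or 0.684% of the 15.3 Mb up to the last region. The medians of the other chromosomes ran from 200 bp on III to 239 bp on X. On II, 50 regions (11.1%) were narrower than 50 bp, against a background of 9.55%. Of these, 6 were a single base and 22 were at most 10 bp, less than the 36 bp of 1 read. Whether such widths come from the caller or from the transfer of coordinates was not tested, so the count of these regions is no count of binding sites. Their scores ran from 2.00 to 3.52, and 2 of the 50 were called in a replicate, or 4%, compared with 200 of the 402 wider ones (49.8%). Narrow regions of III, IV, V and X also had few calls, 24 of 171 (14.0%), against 57.3% of the wider ones there. The lowest scores of the chromosome belonged to such regions, among them the 13 bp at II:12778540-12778552 and the single base at II:4793672, both with a score of 2.00. All q-values of the list lie below 0.01, so a score of 2 is its lower limit, and nothing below it could be seen.

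Of the 452 regions, 202 were called in at least 1 replicate (44.7%, 40.2 to 49.3), against 51.6% of the regions on the 5 chromosomes. Replicate 1 called 88 of them (19.5%; background 23.9%), replicate 2 called 176 (38.9%; background 45.7%), and both called 62 (13.7%; background 18.0%). Replicate 2 alone called 114 (25.2%; background 27.7%) and replicate 1 alone called 26 (5.75%; background 5.92%). In neither replicate were 250 called (55.3%; background 48.4%). The whole list also holds regions outside the 5 chromosomes. Over it, the shares for at least 1 replicate, each replicate and both were lower and nearer those of II. They were 47.7% for at least 1 replicate, 21.4% for replicate 1, 42.6% for replicate 2 and 16.3% for both. The median score was 6.39 for the 62 regions of both replicates, 3.90 for those of replicate 2 alone, 3.63 for those of replicate 1 alone and 2.53 for those of neither. Median widths followed the same order, at 366, 264, 220.5 and 163.5 bp. Scores and calls come from the same reads, so this order is partly built in.

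Some regions broke from that order. The strongest chromosome II regions without a call in any replicate were II:759872-760148 with a combined score of 4.51, II:8956977-8957176 with 4.38 and II:4299225-4299526 with 4.34. Each was 200 to 302 bp wide, above or near the median width. The strongest called in replicate 1 alone was II:5860637-5861042, with a combined score of 6.58 and a replicate 1 score of 3.74. A gap of 15.5 kb separated it from the second-ranked region of the chromosome. It was followed by II:10753629-10753902, with 5.43 and 3.63, and by II:7594244-7594546, with 4.88 and 2.56. Among those called in replicate 2 alone, II:14938239-14938616 came after the wide region named above, with a combined score of 8.02 and a replicate 2 score of 6.42, and II:6706664-6707120 followed with 6.76 and 3.68.

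Where both replicates called a chromosome II region, replicate 2, the deeper library, usually gave the higher score. It did so in 43 of the 62 regions (69.4%), with a median difference in score of 0.73 (quartiles −0.17 and 1.87). On III, IV, V and X together the share was 70.3% of 354. The largest difference the other way was at II:1341443-1341845, which scored 6.51 in replicate 1 and 3.33 in replicate 2. The combined score exceeded both replicate scores in all 62 regions and exceeded their sum in 49. Its median ratio to that sum was 1.07 on II and 1.04 on III, IV, V and X. The combined list holds the reads of both replicates, so higher combined scores are partly built in. No chromosome II region overlapped more than 1 region of either replicate list. The combined region enclosed the replicate 1 region in 67 of 88 cases and the replicate 2 region in 136 of 176. Such enclosures were not counted on the other chromosomes.

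**Figure D2:**
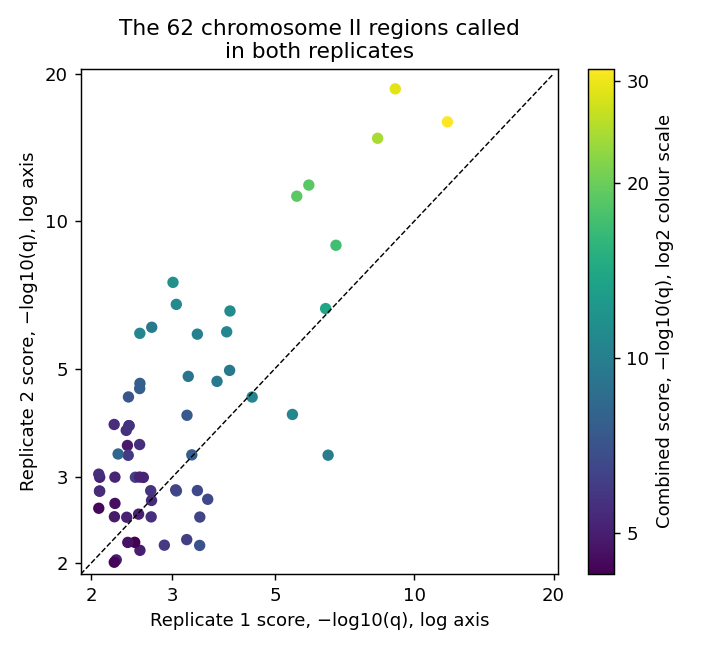
Replicate 2 score against replicate 1 score, both −log10(q) on log axes, for the 62 chromosome II regions called in both replicates, coloured by combined score. The dashed line marks equal scores: 43 regions lie above it.

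The replicate lists themselves shared 62 chromosome II regions. This was 68.9% of the 90 regions of replicate 1 (58.7 to 77.5) and 34.1% of the 182 regions of replicate 2 (27.6 to 41.2). On III, IV, V and X together, 75.9% of replicate 1 and 39.6% of replicate 2 regions had a match. The chromosome II shares lay near those of III (68.2% and 32.4%) and below those of IV (79.8% and 40.7%). These differences were not tested. Of the replicate regions on chromosome II, 2 of replicate 1 and 7 of replicate 2 overlapped no combined region, and their scores did not exceed 2.70. The strongest of these was II:5188310-5188398, 89 bp wide, in replicate 2. Among replicate regions without a match in the other replicate, the 3 highest scores were 8.50, 6.42 and 4.57 in replicate 2 and 3.74, 3.63 and 2.71 in replicate 1. Each of these 6 overlapped a combined region.

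Whether chromosome II regions were recovered less often than regions of the same strength and width elsewhere was asked in a logistic model over all 2313 regions, with log2 score and log2 width as covariates and standard errors clustered on 1 Mb windows. The odds of a call in at least 1 replicate were lower on II than on the other 4 chromosomes together, with an odds ratio of 0.64 (95% interval 0.46 to 0.90, n = 2313 regions, Benjamini-Hochberg adjusted p = 0.021 over 8 tests). The p-values of this model measure spread over regions and windows, and not between libraries, and they may be somewhat too small. Against single chromosomes the odds ratio was 0.52 to III (0.37 to 0.75) and 0.47 to IV (0.31 to 0.72), each with an adjusted p of 0.0020. To V it was 0.69 (0.46 to 1.03) and to X 0.90 (0.62 to 1.29), where the test found no difference (n = 2313 regions, adjusted p = 0.108 and 0.561). Regions of chromosome II thus had lower odds of a call than those of III and IV, while the intervals for V and X reach from well below 1 to above it.

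By replicate, the odds ratio of II to the other 4 chromosomes was 0.69 in replicate 2 (0.51 to 0.92, n = 2313 regions, adjusted p = 0.021). In replicate 1 it was 0.83 (0.61 to 1.14), and for calls in both it was 0.78 (0.55 to 1.10), neither past the threshold (n = 2313 regions, adjusted p = 0.286 and 0.211). The odds ratio of 0.64 for any call missed the threshold with 50% reciprocal overlap as the rule of support, at 0.78 (n = 2313 regions, adjusted p = 0.212). It also missed it at 0.70 (0.51 to 0.96) with regions under 50 bp left out (n = 2092 regions, adjusted p = 0.076). Without III (0.50 to 0.98) or without IV (0.50 to 0.99) it missed it at 0.70. These intervals, which are not adjusted for the number of tests, lie below 1. Against III alone it missed it with 50% reciprocal overlap (0.82, 0.60 to 1.13). The odds ratio for any call passed when pooled over bands of combined score (0.67), in the upper 50% of scores (0.60), without V (0.63) and without X (0.55). Over all alternatives its adjusted p ran from 0.0012 to 0.286 (n = 2313 regions or fewer).

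At combined scores from 2.5 to 4, 79 of 202 chromosome II regions were called in at least 1 replicate (39.1%, 32.6 to 45.98), compared with 373 of 786 on the other 4 chromosomes (47.5%, 43.99 to 50.95). The share was 40.2% on X, 47.2% on V, 50.8% on III and 54.8% on IV. Replicate 2 called 30.2% of these regions on II and 39.1% on the others, and replicate 1 called 8.91% and 9.54%. From 4 to 6, 69 of 76 chromosome II regions had a call (90.8%), against 93.4% elsewhere. Above 6, all 46 on II and all 273 elsewhere had one.

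Calls in both replicates began at a score of 4.25 on chromosome II. Below 4, 0 of 330 regions had them, which allows a share of up to 0.909%, and 9 of 1268 did elsewhere (0.710%). Above 6, both replicates called 36 of 46 chromosome II regions (78.3%) and 243 of 273 elsewhere (89.0%). Of the 10 chromosome II regions that only 1 replicate called in this range, 9 were called in replicate 2 and 1 in replicate 1. Elsewhere replicate 2 also called more, with 164 against 141 of 167 regions from 6 to 10. Above 10 it called 106 against 105 of 106 there, so this lean is not particular to II. From 6 to 10, replicate 1 called 22 of 30 regions on II (73.3%, 55.6 to 85.8) and 141 of 167 elsewhere (84.4%, 78.2 to 89.1). These shares within bands were not tested one by one.

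**Figure D3:**
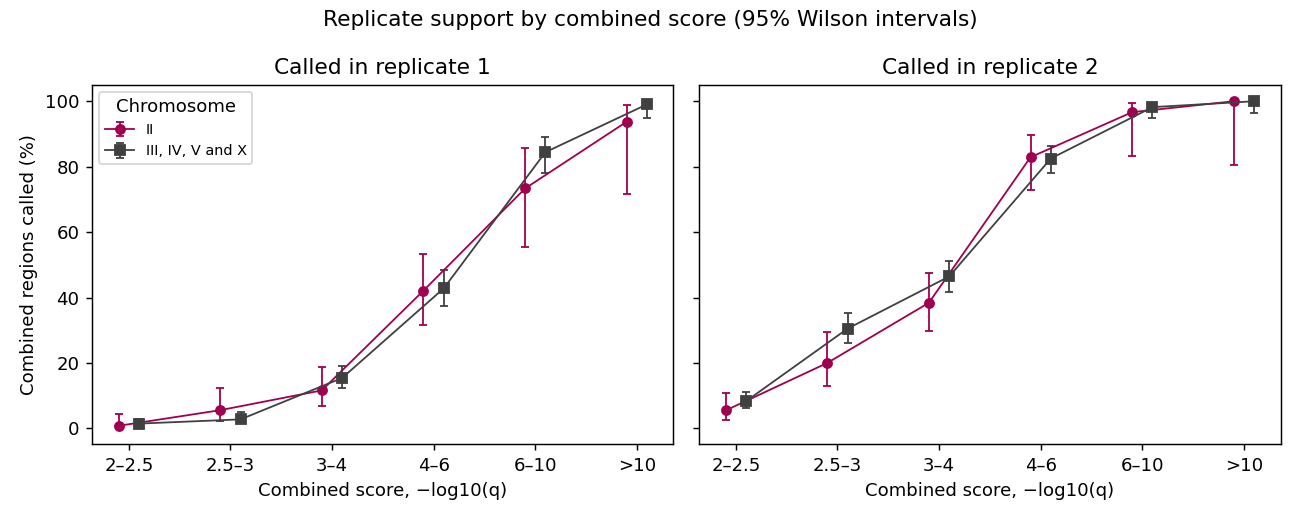
Share of combined regions called in replicate 1 (left) and replicate 2 (right) within bands of combined score, for chromosome II (circles) and for III, IV, V and X together (squares), with 95% Wilson intervals. In replicate 2 the chromosome II shares are 20.0% at scores from 2.5 to 3, below 30.5% on the others, and the curves meet from a score of 4 upward.

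Along the chromosome, CES-1 regions were crowded in a block that lay mostly left of the middle. The windows from 5 to 8 Mb held 48, 56 and 46 regions, or 150 together, which is 33.2% of the chromosome's regions on 19.7% of its extent. Their density was 50.0 regions per Mb, against 24.6 per Mb on the rest. The block was chosen after seeing the windows, so this contrast is partly built in, and it was not tested. Crowded windows also lay elsewhere: the fullest held 56 regions on II, 47 on III, 39 on IV, 41 on V and 45 on X. A second rise lay from 11 to 12 Mb, with 50 regions, followed by a drop to 16 in the next window. The sparsest window, from 2 to 3 Mb, held 11, and the mean over 15 whole windows was 29.7 ± 14.6 (SD, n = 15). Cut into 4 equal parts from left to right, the chromosome held 52, 156, 135 and 109 regions, so its left end was the emptiest. The largest stretch without a region ran for 676 kb between II:1520128 and II:2195698, and the next, of 360 kb, between II:873721 and II:1233551, both in the leftmost part. The largest stretch was 220 kb on III, 253 kb on X, 427 kb on IV and 634 kb on V. Mappability was not given, so stretches without regions and stretches without unique reads cannot be told apart.

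The median score was 3.08 in the block from 5 to 8 Mb and 3.07 on the rest of the chromosome. In the block 61 of 150 regions were called in a replicate (40.7%), and on the rest 141 of 302 (46.7%), a difference that was chosen after seeing the windows and was not tested. The best supported window was that from 10 to 11 Mb, where 23 of 34 regions had a call (67.6%) and replicate 1 reached its highest number, 13. Its median score, 3.46, was also the highest of the whole windows. The window from 13 to 14 Mb held 24 regions, of which 0 were called in both replicates, and had the lowest median score, 2.63. Over all of chromosome II, 44.7% had a call and 13.7% were called in both. These windows were picked after seeing the values and were not tested. On a finer scale, 23 of 152 whole 100 kb windows were empty and 10 held 8 or more regions. The densest, II:7900001-8000000, held 13 regions with a median score of 2.36, of which 3 were called in a replicate. The next, II:6100001-6200000, held 12 with a median score of 3.44, of which 5 were called.

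**Figure D4:**
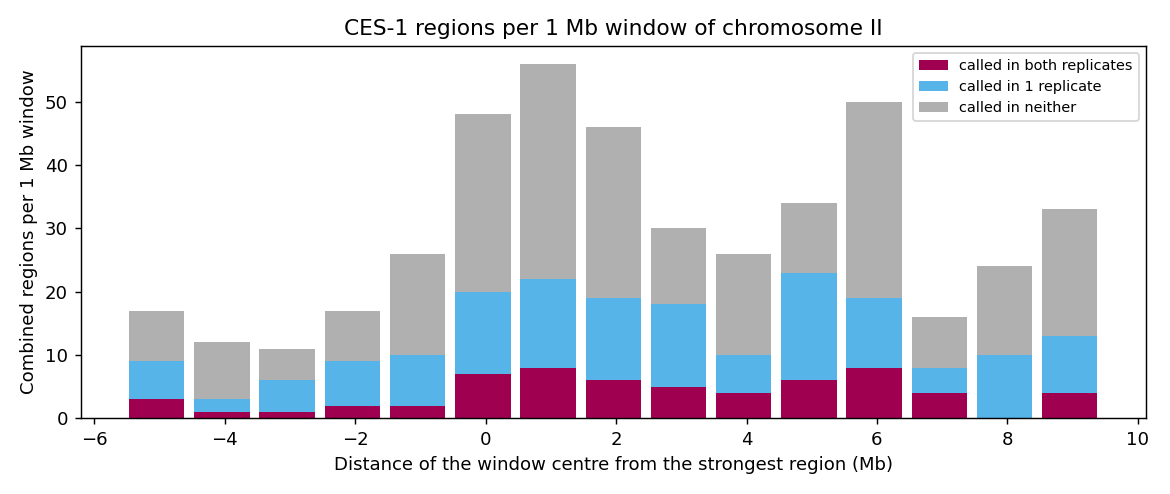
Combined regions in each of the 15 whole 1 Mb windows of chromosome II, against the distance of the window centre from the strongest region, divided by replicate support. The window that holds the strongest region and the next 2 to its right hold 48, 56 and 46 regions, and the window about 6 Mb to the right holds 50.

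The central 50% of chromosome II held 291 of its 452 regions (64.4%, 59.9 to 68.7). The central share was higher on V (69.6%) and lower on IV (59.9%), III (57.2%) and X (52.1%). For chromosome II it was 67.8% in the replicate 1 list and 62.6% in that of replicate 2. Central and outer regions of II had median scores of 3.11 and 3.06 and median widths of 207 and 205 bp. A replicate call was found for 45.4% of the central and 43.5% of the outer regions. In a quasi-Poisson model of regions per 1 Mb window, the ratio of centre to outer windows on II was 1.15 times that of the other 4 chromosomes (95% interval 0.78 to 1.70, n = 82 windows, p = 0.461), so a difference was not detected.

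In the same kind of model, with position in the centre as a covariate, chromosome II held 1.58 times as many regions per window as V (1.24 to 2.02, n = 82 windows, Benjamini-Hochberg adjusted p = 0.0016 over 4 tests). The ratio was 1.32 to IV (1.03 to 1.68), 0.95 to III (0.75 to 1.21) and 0.90 to X (0.72 to 1.13), with adjusted p of 0.058, 0.686 and 0.493 in that order. The p-values of this density model measure spread over windows, and not between libraries, and they too may be somewhat too small. In the list of replicate 2 the ratio to V was 1.34 (n = 82 windows, adjusted p = 0.136), and in that of replicate 1 it was 1.40 (adjusted p = 0.188). The greater density of chromosome II relative to V thus passed the test in the combined list and in neither replicate list. The ratio to IV, which did not pass, was 0.97 in replicate 2 and 0.95 in replicate 1. In the same order, the ratios to III were 0.80 and 0.81 and those to X 0.80 and 0.66. The interval to X in replicate 1 was 0.47 to 0.94 (n = 82 windows, adjusted p = 0.084). All ratios were thus lower in the replicate lists than in the combined list.

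**Figure D5:**
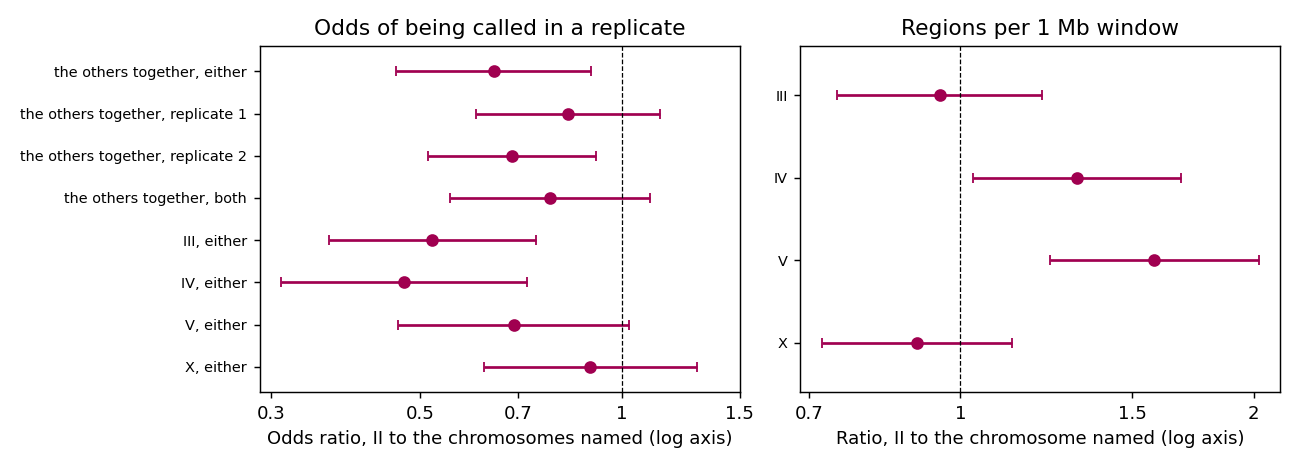
Left, odds of a call in the replicates for chromosome II regions relative to the chromosomes named, from the logistic model. Right, regions per 1 Mb window of II relative to the chromosome named, from the quasi-Poisson model. Points are estimates and bars 95% intervals on log axes; on the left the intervals of III and IV, and on the right that of V, lie farthest from 1.

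A neighbour whose centre was at most 1000 bp away was found for 68 of the 452 chromosome II regions (15.0%, 12.0 to 18.6), against 10.2% of regions on the 5 chromosomes, 11.0% on III, 10.3% on V, 9.16% on IV and 6.41% on X. The order of these shares was not that of density, since X had the highest density and the lowest share. The shares were not tested. The median distance between neighbouring regions was 13460 bp on II and between 15618 and 19469 bp on the others. The smallest gap on II was 204 bp, and none of the other 4 chromosomes had a gap under 208 bp. The close regions formed 33 groups, 31 of them pairs and 2 of them triplets.

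The triplets differed in strength. The first spanned 2017 bp and held II:8587589-8588031, called in both replicates with a combined score of 11.0, a weak middle region at II:8588440-8588610 with 2.16, called in neither, and II:8589245-8589605, called in both with 5.47. The second spanned 1238 bp from II:6346778 to II:6348015, and its 3 regions, with scores of 2.58, 2.02 and 3.65, were called in neither replicate. Among the pairs, the stronger region alone had a replicate call in 12, the weaker alone in 1, both in 8 and none in 10. Combined scores and calls come from the same reads, so this split is partly built in. It was not counted on the other chromosomes. The pair II:10760790-10761136 and II:10761580-10761947, with combined scores of 5.42 and 9.16, was called in both replicates at both places and began 1441 bp from the end of the third-ranked region of the chromosome. A replicate call was found for 45.6% of the close regions and 44.5% of the others on II.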

How the data were processed

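Per the file headers, the authors called regions with PeakSeq and gave them in WormBase WS220 coordinates, transferred from a build that is not named. Each deposited list gives 1 q-value per region, ChIP against input. Per the deposited sample table, replicate lists came from single ChIP libraries, the combined list from merged alignments, and all used 1 merged input. That table also holds the deposited read counts per run (36 bp reads), which were summed per library. How reads were aligned, and with which version of PeakSeq, is not given in the sources used here.

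Scores, −log10(q), were computed from the lists. Regions sharing at least 1 bp were matched. Support was fitted by logistic regression with standard errors clustered on 1 Mb windows, and counts per whole 1 Mb window by quasi-Poisson regression, with statsmodels 0.14.6 and scipy 1.17.1 under Python 3.11.15 (pandas 2.3.3, numpy 2.4.6, matplotlib 3.10.9). Regions within and between windows may depend on each other. Both models were tested on simulated data, and the p-values of both may be somewhat too small. Wilson intervals (95%) and the limit for a count of 0 (3 counts) cover counting error only. Chromosome extents end at the last region. The members, tests and settings were chosen with earlier results of these data known. The regions named are the 10 highest-scoring, the 3 widest, the 3 lowest-scoring and the 3 strongest of each support class, the strongest unmatched replicate regions, the longest groups of close regions and the extreme windows. Others were named after their values were seen. No genome or annotation of WS220 was used here, so no sequence, gene or E-box was examined.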

Additional observations from a re-analysis of the deposited data

How the results depend on the processing

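Of 78 alternative settings over all results, 60 left a test on its side of the threshold, a share or median within its interval or a count within 1.5 times. These 60 include tests that passed in neither the main nor the alternative setting, so the tally is no measure of robustness. Among them is the density ratio to IV, which moved from 1.32 to 0.97 and 0.95 in the replicate lists. Results that had passed in the main setting were reversed in 0 cases, and only such results could count as reversed. The odds ratio of replicate support, 0.64, missed the threshold with 50% reciprocal overlap (0.78), for regions of at least 50 bp (0.70), without chromosome III (0.70) and without chromosome IV (0.70). When only calls in replicate 2 counted as support, the odds ratio was 0.69 and passed. When only calls in replicate 1 counted, it was 0.83 and missed the threshold. The combined list and its scores stayed the same in both settings. Against III it missed the threshold with 50% reciprocal overlap (0.82). Against V, 0.69, it passed in the upper 50% of scores (0.60). The density ratio to V, 1.58, ranged from 1.34 to 1.40 in single replicates and missed the threshold in both, and these lists hold fewer regions. The central share of 64.4% was 45.1% for the central 33.3% of the chromosome, a smaller part by construction. The median width of 205.5 bp was 224 bp for regions of at least 50 bp and 366 bp for those in both replicates. The 16 regions above a score of 10 became 46 above 6 and 122 above 4. The 68 close regions became 116 at 2000 bp and 91 with gaps between edges under 1000 bp. The overlap of the replicate lists on chromosome II, 68.9% of replicate 1, was 57.8% with 50% reciprocal overlap and 53.3% with equal list lengths, and that of replicate 2, 34.1%, was 52.2% with equal list lengths. Other causes were not tested. Letters of E-boxes and distances to gene starts were not run. No paired analysis was possible because no deposited list gives an input library by itself and the tests ran over regions and windows. With 2 ChIP libraries, spread between libraries was not estimated, and whether depth limits the calls of replicate 1 was not tested.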
